A study of Mus musculus with 4 samples.

Results

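The collagen genes were described in whole hearts of male mice collected 3 months after myocardial infarction (MI), which had been induced at 8 weeks of age by tying off the left coronary artery. They were found as all genes whose symbol in the array's annotation had the form Col, a number, the letter a and a number. This gave 42 genes of 19505 different symbols on 22206 probes, each collagen read by 1 probe (a summarized set of oligonucleotides for 1 transcript on the Clariom S array). By the class of protein they encode, 11 were fibrillar, 8 FACIT (fibril-associated collagens with interrupted triple helices), 3 network-forming, 6 basement membrane, 6 microfibrillar and 8 of other kinds (membrane-spanning, multiplexin and the like). Col7a1 and Col12a1, also written into these classes, matched no named probe and were not analysed here.

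The 2 TTg-MI hearts had the genotype Tcf21iCre/Tomato/MGTH2A. The 2 Ctrl-MI hearts had the genotype Tcf21iCre/Tomato, so that infarction, Cre and the Tomato reporter were shared by both groups and only the MGTH2A transgene differed. MGTH2A joins Mef2c, Gata4, Tbx5 and Hand2 in 1 construct, cardiac transcription factors used to turn fibroblasts towards a muscle-like state, and Cre under Tcf21 directs it to cardiac fibroblasts and other Tcf21-lineage cells. When Cre was activated, the strain and the size of each infarct are not given in the sources used here. Mice whose ejection fraction exceeded 45% shortly after surgery had been removed, which limits the hearts to those with the poorer early function. All values are deposited log2 expression values, on which 1 unit is a doubling, and every difference is the mean of TTg-MI less that of Ctrl-MI.

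Collagens are triple helices of 3 chains, made largely by fibroblasts in the heart and deposited as scar where muscle has died. Fibrillar collagens form the load-bearing fibres of the scar, FACIT collagens sit on their surface, type VIII collagen builds open networks around vessels and in remodelling tissue, type IV collagen forms the sheets under endothelium and around every muscle cell, and type VI collagen forms beaded filaments between sheet and fibre. The chains must be hydroxylated, folded, trimmed of their propeptides and cross-linked before they become a stable matrix.

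The array medians lay between 6.55 and 6.62, and the lower quartiles between 5.41 and 5.48. Across probes, Pearson correlations between arrays ran from 0.977 to 0.991. Ctrl-MI replicate 2 correlated more closely with TTg-MI replicate 1 (0.9905) than with Ctrl-MI replicate 1 (0.9868). It also stood apart in some atrial muscle genes. Myl7, an atrial myosin light chain, had 12.45 and 11.47 on the TTg-MI arrays, and 10.44 and 5.61 on Ctrl-MI replicates 1 and 2. Myl4 and Sln were also low on Ctrl-MI replicate 2, at 7.70 and 7.90, against 15.99 and 14.07 on Ctrl-MI replicate 1. Dkk3 (10.78 and 7.73 on Ctrl-MI replicates 1 and 2) and Clu (18.38 and 17.35) were lower on Ctrl-MI replicate 2 as well. Gja5 (7.71 and 7.73), Stard10 (8.76 and 8.81) and Tbx5 showed no such gap. Bmp10 was under the lower quartile on both Ctrl-MI arrays. Nppa (19.92 and 19.90) lay at or near the highest value of these arrays (19.92 and 19.93), where a gap could be hidden. Tbx5, a factor of the transgene, had 10.68 and 9.72 in TTg-MI against 7.62 and 7.88 in Ctrl-MI, and Mef2c had 16.01 and 13.97 against 12.67 and 13.02. Gata4 overlapped between the groups at 14.07 and 13.38 against 13.39 and 13.74, as did Hand2 at 9.94 and 8.93 against 9.09 and 8.24. Tcf21, the driver's own gene, had 7.26 on both TTg-MI arrays against 8.96 and 8.30. All 10 cardiomyocyte markers lay above the array median on all 4 arrays.

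Promoter windows are shown for 4 collagens that were lower on both TTg-MI arrays than on both Ctrl-MI arrays, 3 fibrillar and 1 network-forming. Each is the 250 bases before the RefSeq start in GRCm38.p6, given 5′ to 3′ on the gene's strand: Col1a2 at chr6:4505368-4505617 (plus), Col3a1 at chr1:45311288-45311537 (plus), Col5a1 at chr2:27886175-27886424 (plus) and Col8a1 at chr16:57754738-57754987 (minus). Capitals mark matches on either strand to the CCAAT box, to the TATA-type motif TATAAA, to the GC box GGGCGG and to the Smad-type element CAGAC.
Col1a2: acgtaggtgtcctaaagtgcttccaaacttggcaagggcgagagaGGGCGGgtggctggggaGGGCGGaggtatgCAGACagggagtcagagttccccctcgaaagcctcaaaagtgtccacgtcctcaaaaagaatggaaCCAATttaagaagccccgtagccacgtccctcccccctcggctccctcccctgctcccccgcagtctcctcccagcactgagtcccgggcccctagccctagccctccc
Col3a1: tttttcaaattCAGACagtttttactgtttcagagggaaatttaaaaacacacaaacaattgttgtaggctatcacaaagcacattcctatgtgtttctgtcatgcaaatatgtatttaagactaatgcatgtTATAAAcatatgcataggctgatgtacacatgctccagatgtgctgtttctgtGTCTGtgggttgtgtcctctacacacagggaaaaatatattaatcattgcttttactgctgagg
Col5a1: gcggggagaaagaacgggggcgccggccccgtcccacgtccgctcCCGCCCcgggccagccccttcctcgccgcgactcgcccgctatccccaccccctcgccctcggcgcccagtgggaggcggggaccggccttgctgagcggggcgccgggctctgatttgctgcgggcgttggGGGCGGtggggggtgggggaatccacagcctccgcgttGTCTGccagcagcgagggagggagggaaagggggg
Col8a1: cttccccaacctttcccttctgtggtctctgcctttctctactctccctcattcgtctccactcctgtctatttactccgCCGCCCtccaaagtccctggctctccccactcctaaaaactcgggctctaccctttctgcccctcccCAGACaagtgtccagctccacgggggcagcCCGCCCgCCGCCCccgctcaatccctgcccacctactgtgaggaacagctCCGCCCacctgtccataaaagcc
CAGAC was present in all 4 windows. The GC box was present in those of Col1a2, Col5a1 and Col8a1, the CCAAT box in that of Col1a2, and the TATA-type motif in that of Col3a1. No match overlapped another in these 4 windows, which were chosen by no set rule. Of the 5 collagens with a window that were lower at an unadjusted limma p under 0.05, 4 held CAGAC. RefSeq windows were found for 34 of the 42 collagens, 37 windows in all as some genes have several starts. GGGCGG was present in 21 of the 37 (56.8%), against 32.7% of all 32851 windows of this length. CCAAT was found in 12 (32.4%, against 33.8%), TATAAA in 5 (13.5%, against 12.4%) and CAGAC in 16 (43.2%, against 42.2%). Each motif was counted by itself, whether or not it overlapped another, and a match is a description of letters and not of binding.

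Over all 42 genes, 25 had a lower mean in TTg-MI and 17 a higher one, so that 59.5% were lower, beside 47.7% of all probes. None passed an adjusted p of 0.05 in limma over all probes, where 1 probe (0.0045%) did, that of Bmp10, an atrial growth factor gene. Their adjusted p ran from 0.546 to 0.999. At an unadjusted limma p under 0.05, 8 collagens were lower (19.0%), beside 5.07% of all probes, and 0 were higher, beside 3.18%. These 8 were Col3a1, Col5a1, Col5a2, Col14a1, Col8a1, Col4a1, Col4a2 and Col4a3. For 15 collagens (35.7%) the 2 TTg-MI values were both below the 2 Ctrl-MI values, beside 18.7% of probes; with Ctrl-MI replicate 2 left out there were 27, beside 36.4%. They were both above for 3, Col11a1, Col13a1 and Col23a1, beside 19.4%, and the groups overlapped for the other 24. The count at the unadjusted threshold depended on single hearts: leaving out Ctrl-MI replicate 1 gave 2 (Col16a1, higher, and Col4a1, lower), leaving out TTg-MI replicate 2 gave 1 (Col4a3) and leaving out Ctrl-MI replicate 2 gave 11.

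**Figure D1:**
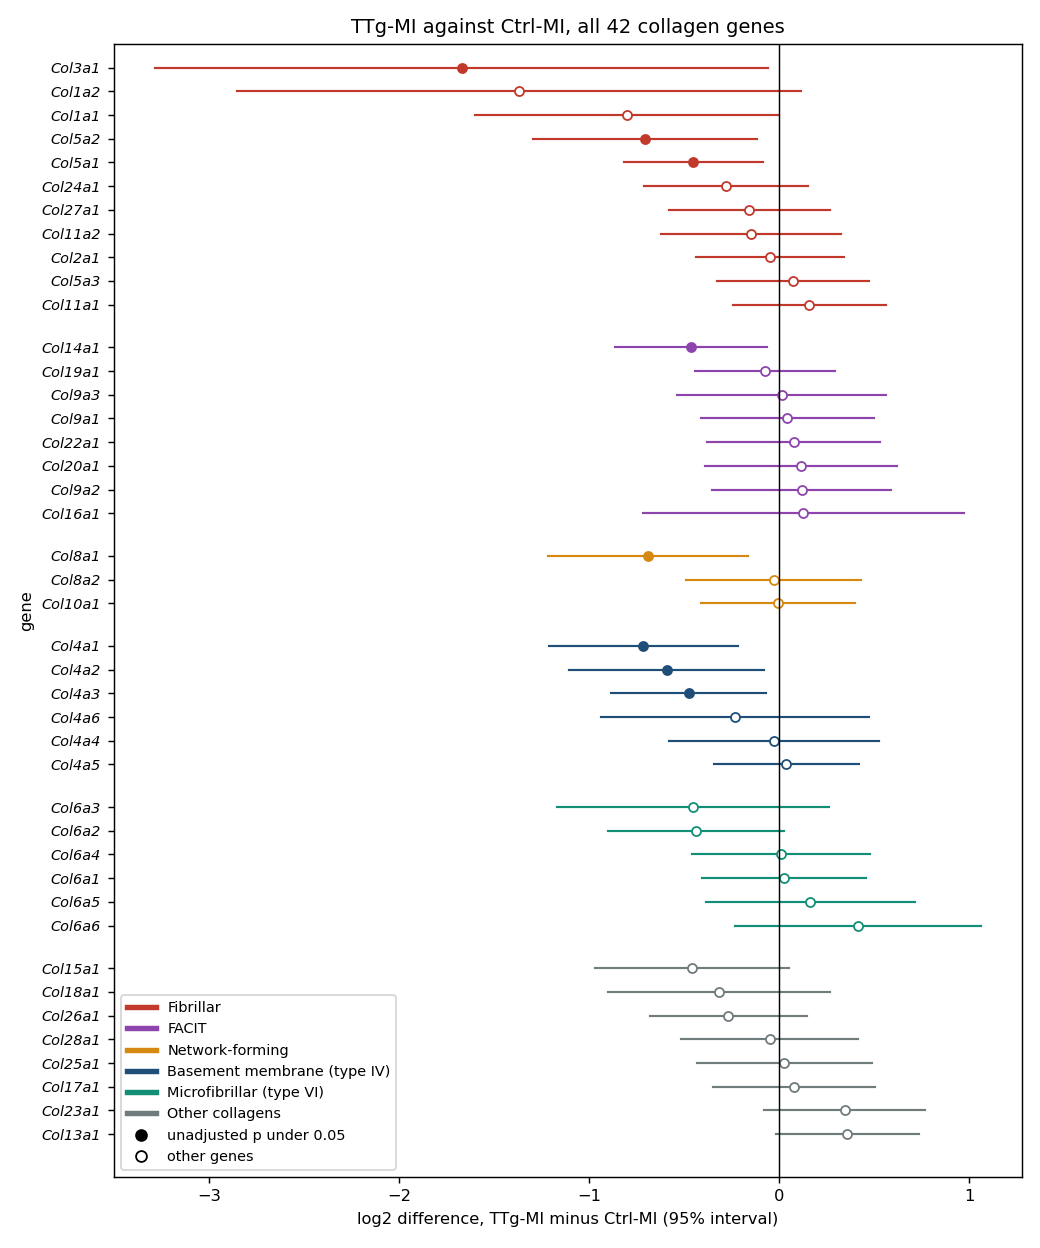
Log2 difference, TTg-MI minus Ctrl-MI, of each of the 42 collagen genes with its 95% interval from limma, grouped by class and ordered by size. Filled points mark the 8 genes at an unadjusted p under 0.05, all left of 0; no gene passed after adjustment over all probes.

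The spread was uneven. Differences at or beyond 0.5 downward were seen for 7 collagens, between 0.5 and 0.25 downward for 9, within 0.25 of 0 for 23 and at or beyond 0.25 upward for 3. The median over all 42 was -0.05, beside 0.01 over all probes. By class the medians were -0.28 for fibrillar, 0.06 for FACIT, -0.03 for network-forming, -0.35 for basement membrane, 0.02 for microfibrillar and -0.01 for the other collagens. Ctrl-MI replicate 1 was the highest of the 4 arrays for 23 collagens, beside 29.6% of all probes, and TTg-MI replicate 2 the lowest for 14, beside 24.1%.

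Among the 11 fibrillar collagens, 9 (81.8%) had a lower mean in TTg-MI, beside 47.7% of all probes. On both its arrays 6 (54.5%) were lower, beside 18.7% of all probes. Col3a1, the type III chain of pliable fibres and early scar, had 11.19 and 9.20 in TTg-MI against 12.21 and 11.53 in Ctrl-MI. The groups did not overlap, although the TTg-MI hearts were further apart than the Ctrl-MI hearts. The difference of -1.67 ± 0.65 (limma's moderated SE, n = 2 each), 3.19-fold lower, was the most negative of any collagen (adjusted p = 0.598 in limma). Each SE given here combines the spread of the gene's own arrays with a variance estimated from all probes. Leaving out TTg-MI replicate 2 gave -0.68, and leaving out TTg-MI replicate 1 gave -2.67.

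Type I collagen, the main fibre of mature scar, is built from Col1a1 and Col1a2. Col1a2 had 10.57 and 9.46 in TTg-MI against 12.17 and 10.60 in Ctrl-MI. The highest TTg-MI array came within 0.03 of the lowest Ctrl-MI array, and the difference was -1.37 ± 0.59 (adjusted p = 0.619). Col1a1 had 10.001 and 9.45 in TTg-MI against 10.91 and 10.14 in Ctrl-MI. Its groups were 0.14 apart at their nearest, with a difference of -0.80 ± 0.32 (adjusted p = 0.605). Both depended on Ctrl-MI replicate 1, the highest array for each: without it the differences were -0.58 for Col1a2 and -0.41 for Col1a1, and with Ctrl-MI replicate 2 left out they were -2.15 and -1.19. Leaving out TTg-MI replicate 2, the lowest array for each, gave -0.81 and -0.52.

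Type V collagen starts and limits the width of type I fibrils. Col5a1 had 6.19 and 6.15 in TTg-MI against 6.61 and 6.63 in Ctrl-MI. The 2 hearts of each group were nearly equal, with a difference of -0.45 ± 0.15 (adjusted p = 0.572) that stayed between -0.47 and -0.43 whichever heart was left out. Col5a2 had 6.72 and 6.50 against 7.61 and 7.03, a difference of -0.71 ± 0.24 (adjusted p = 0.572), with Ctrl-MI replicate 1 the highest. It was -0.42 without that heart. Another type V chain, Col5a3, gave 0.07 with overlapping groups. The remaining fibrillar genes differed little: Col2a1, Col11a2 and Col27a1 lay between -0.16 and -0.05, and Col11a1, mainly a cartilage chain, was 0.16 higher with groups 0.0047 apart. Col24a1 was under the lower quartile on all 4 arrays, so its -0.28 rests on dim signal.

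**Figure D2:**
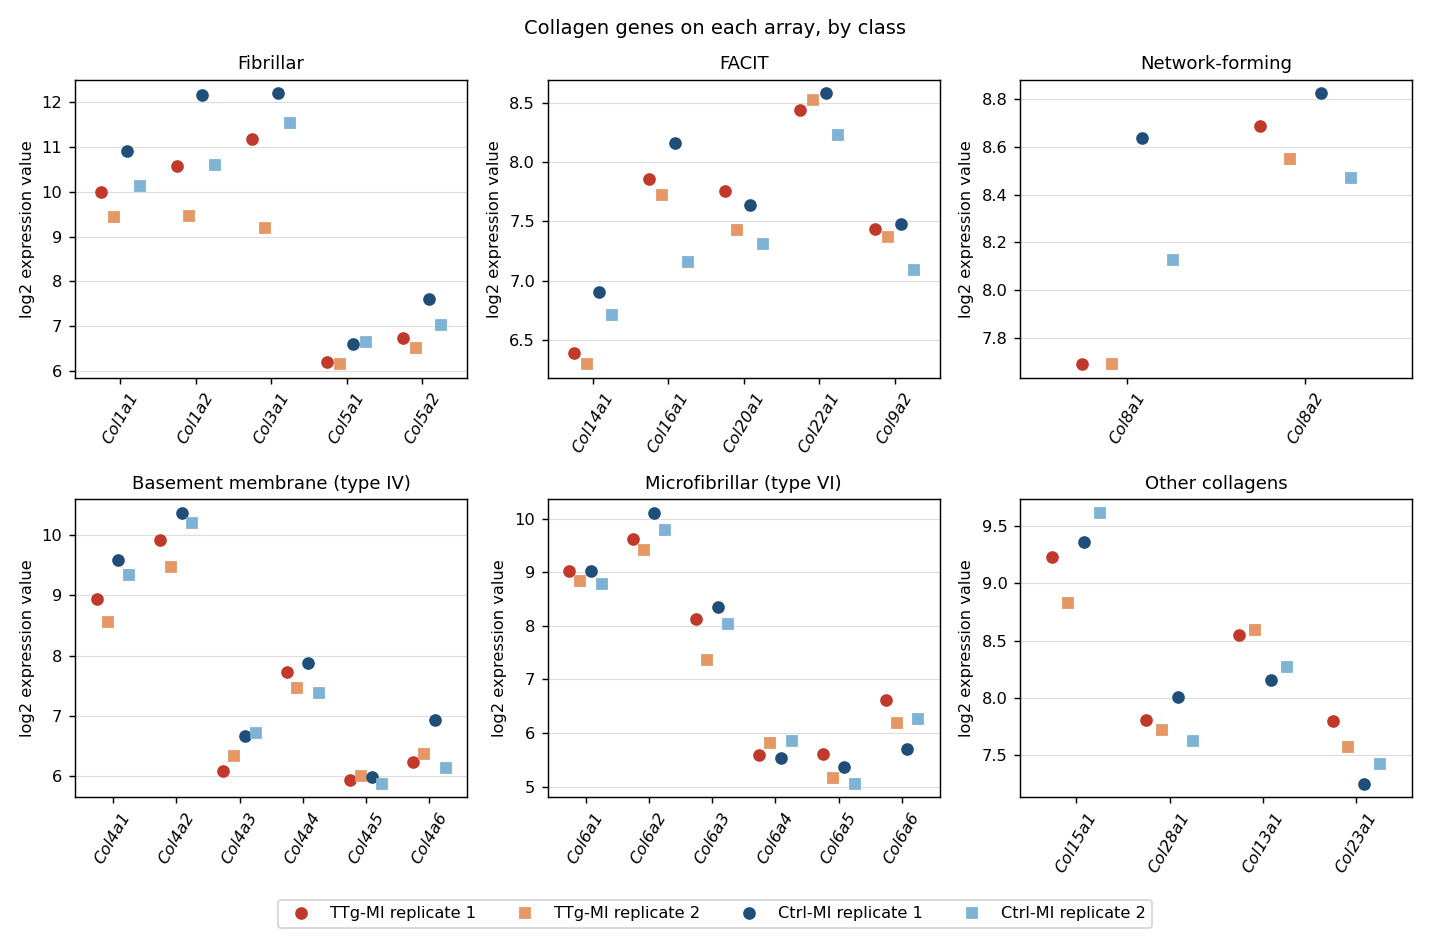
Deposited log2 value on each of the 4 arrays of the 28 collagen genes whose array values are given, 1 panel per class, with the TTg-MI arrays left of the Ctrl-MI arrays within a gene. Arrays can be compared within a gene, while levels of different genes come from different probes; the Col3a1 values of the TTg-MI hearts, 11.19 and 9.20, lie below those of the Ctrl-MI hearts.

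FACIT collagens decorate fibrils without forming them, and 6 of the 8 had a higher mean in TTg-MI, none beyond 0.13. Col14a1, which sits on type I fibrils and regulates their growth, stood apart from the rest. Its arrays read 6.39 and 6.29 in TTg-MI against 6.90 and 6.71 in Ctrl-MI. Both TTg-MI values were below both Ctrl-MI values, and the difference was -0.47 ± 0.16 (adjusted p = 0.576), ranging from -0.56 to -0.37 when single hearts were left out. Col16a1 read 7.86 and 7.72 against 8.17 and 7.16, so the Ctrl-MI hearts enclosed the TTg-MI hearts. Its difference was 0.13 ± 0.34, with 0.63 when Ctrl-MI replicate 1 was left out and -0.38 when Ctrl-MI replicate 2 was. Col22a1, a collagen of muscle to tendon junctions, read 8.44 and 8.53 against 8.58 and 8.23, a difference of 0.08 ± 0.18 with overlap. Col20a1 read 7.76 and 7.42 against 7.64 and 7.31, and Col9a2 7.43 and 7.36 against 7.48 and 7.09, each with overlapping groups. Col9a1, Col9a3 and Col19a1 lay between -0.07 and 0.04, Col19a1 with both TTg-MI arrays lower by a narrow margin.

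Network-forming collagens include type VIII, made by vessel walls and activated stromal cells, and type X of growth cartilage. Col8a1 had 7.69 and 7.69 in TTg-MI against 8.64 and 8.13 in Ctrl-MI. The 2 TTg-MI hearts were nearly equal, the groups were 0.43 apart at their nearest, and the difference was -0.69 ± 0.21, 1.61-fold lower (adjusted p = 0.555 in limma). It was -0.43 without Ctrl-MI replicate 1. Its partner chain Col8a2 had 8.69 and 8.55 against 8.82 and 8.47, overlapping, with a difference of -0.03 and a 95% interval from -0.49 to 0.43. Col10a1 was under the lower quartile on all 4 arrays.

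Of the 6 type IV chains of basement membranes, 5 had a lower mean in TTg-MI, beside 47.7% of all probes. On both TTg-MI arrays 3 were lower than on both Ctrl-MI arrays, beside 18.7% of all probes. Col4a1 and Col4a2 together make the form found under nearly all cells. Col4a1 had 8.93 and 8.55 in TTg-MI against 9.58 and 9.33 in Ctrl-MI, a difference of -0.71 ± 0.20 and 1.64-fold lower, with the smallest unadjusted p of any collagen (0.0132, adjusted p = 0.546). Col4a2 had 9.92 and 9.46 against 10.36 and 10.20, a difference of -0.59 ± 0.21 (adjusted p = 0.579). In both genes the groups were apart, and TTg-MI replicate 2 was the lowest array; leaving it out gave -0.53 and -0.37. Col4a3, a chain best known from kidney and lung, had 6.09 and 6.33 against 6.67 and 6.71, a difference of -0.48 ± 0.16 (adjusted p = 0.576). Here the 2 Ctrl-MI hearts were nearly equal and both TTg-MI hearts were below them.

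The other type IV chains overlapped between groups. Col4a4 had 7.73 and 7.47 against 7.87 and 7.38 (-0.03 ± 0.22), Col4a5 had 5.94 and 6.01 against 5.99 and 5.87 (0.04 ± 0.15), and Col4a6 had 6.23 and 6.37 against 6.93 and 6.14 (-0.23 ± 0.28). Col4a6 followed a single heart, Ctrl-MI replicate 1; without it the difference was 0.17.

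Type VI collagen, the microfibrillar class, is assembled from Col6a1, Col6a2 and 1 further chain. Col6a1 had 9.03 and 8.83 in TTg-MI against 9.03 and 8.79 in Ctrl-MI. Its difference was 0.02 ± 0.17, with a 95% interval from -0.41 to 0.46, an interval that does not show the groups to be alike. Col6a2 had 9.62 and 9.41 against 10.11 and 9.80, with the groups apart and a difference of -0.44 ± 0.19 (adjusted p = 0.618) that was -0.28 when Ctrl-MI replicate 1 was left out. Col6a3 had 8.12 and 7.36 against 8.35 and 8.04, overlapping because TTg-MI replicate 1 lay among the controls, with a difference of -0.45 ± 0.29. Leaving out single hearts gave -0.83 (TTg-MI replicate 1) to -0.08 (TTg-MI replicate 2). Col6a6, an alternative to Col6a3, had 6.62 and 6.18 against 5.70 and 6.27, the most positive difference of any collagen at 0.42 ± 0.26 but with overlap; leaving out single hearts gave 0.13 (Ctrl-MI replicate 1) to 0.70 (Ctrl-MI replicate 2). Col6a4 had 5.60 and 5.81 against 5.53 and 5.86. Col6a5 had 5.60 and 5.15 against 5.37 and 5.05 and was under the lower quartile on 3 of the 4 arrays.

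The other collagens divided evenly, with 4 lower and 4 higher means. Col15a1, a multiplexin that links basement membrane to the matrix around muscle and capillaries, had 9.23 and 8.83 in TTg-MI against 9.36 and 9.62 in Ctrl-MI, a difference of -0.46 ± 0.20 (adjusted p = 0.627) without overlap, and of -0.26 when TTg-MI replicate 2 was left out. Col13a1 and Col23a1 span the cell membrane. Col13a1 had 8.55 and 8.59 against 8.16 and 8.27, higher on both TTg-MI arrays by 0.36 ± 0.15 (adjusted p = 0.615), and Col23a1 had 7.79 and 7.57 against 7.25 and 7.42, higher on both by 0.35 ± 0.17 (adjusted p = 0.663). Their differences kept that sign whichever heart was left out, at 0.30 to 0.41 for Col13a1 and 0.23 to 0.46 for Col23a1. Col28a1, a collagen of peripheral nerve, had 7.81 and 7.72 against 8.00 and 7.62 with overlap. Col17a1, Col18a1, Col25a1 and Col26a1 lay between -0.32 and 0.08.

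Chains of 1 molecule, and some chains of different collagen types, were set against each other as log2 ratios within an array. A ratio removes whatever scales the whole array. The 13 pairs were chosen by partnership, relatedness or gene order after values had been seen, and 7 of them had ratios that did not overlap between groups. Among single probes, 18.7% were apart with TTg-MI below and 19.4% with TTg-MI above; no such share was computed for ratios, so the 7 pairs are a description. A single ratio with 2 arrays against 2 cannot give an exact permutation p below 0.333, so none is given. Col6a2 over Col6a1 was 0.59 and 0.57 in TTg-MI against 1.08 and 1.01 in Ctrl-MI, a difference of -0.46 with the arrays of each group close together. Col8a1 over Col8a2 was -0.99 and -0.86 against -0.19 and -0.34, also apart. Col3a1 over Col1a1, chains of different molecules, was 1.19 and -0.24 against 1.29 and 1.39, apart mainly through TTg-MI replicate 2. Col4a1 over Col4a2 was -0.99 and -0.91 against -0.78 and -0.87, also apart, with a difference of -0.12. Col1a1 over Col1a2 overlapped, at -0.57 and -0.01 against -1.25 and -0.46. These ratios compare groups for a pair of probes and do not give the chains' proportions.

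**Figure D3:**
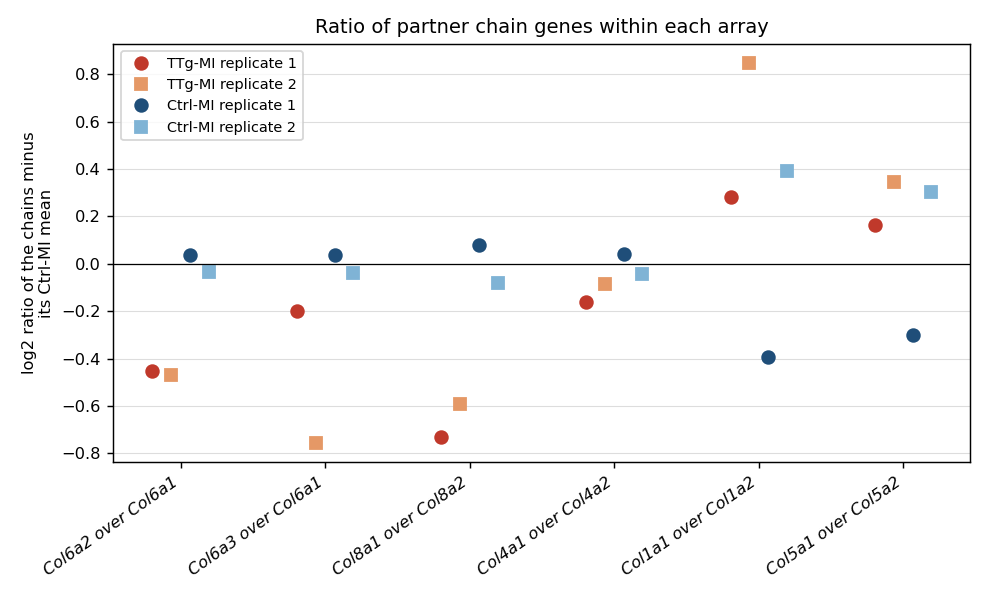
Log2 ratio of 6 pairs of partner chains on each array, less the pair's Ctrl-MI mean, with TTg-MI arrays left of Ctrl-MI arrays. Col6a2 over Col6a1 and Col8a1 over Col8a2 lay lower on both TTg-MI arrays, whereas Col1a1 over Col1a2 overlapped.

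In RefSeq gene order, 15 collagens formed 8 pairs of neighbours. Both members of Col3a1 and Col5a2 (chromosome 1) and of Col4a1 and Col4a2 (chromosome 8) were lower on both TTg-MI arrays, and 3 pairs held 1 gene that was and 1 that overlapped: Col6a2 and Col6a1 (chromosome 10), Col4a3 and Col4a4 (chromosome 1), and Col19a1 and Col9a1 (chromosome 1).

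The enzymes and receptors that handle collagen were measured for 58 of 64 genes written into 6 lists. Of these, 40 (69.0%) had a lower mean in TTg-MI, beside 47.7% of all probes. At an unadjusted limma p under 0.05, 14 (24.1%) were lower, beside 5.07% of probes, and 2 were higher, beside 3.18%; none passed after adjustment. The TTg-MI values were both below the Ctrl-MI values for 27 (46.6%), beside 18.7% of probes, and both above for 7, beside 19.4%. The median difference was -0.20. Cross-linking enzymes had the lowest median of the 6 lists, -1.16, with 5 of 6 lower and 4 at the unadjusted threshold. Lox, lysyl oxidase, which starts covalent cross-links between fibrils, had 6.09 and 5.77 in TTg-MI against 8.25 and 7.19 in Ctrl-MI, a difference of -1.79 ± 0.36 (adjusted p = 0.546). Its relative Loxl3 had 8.18 and 7.29 against 10.23 and 8.87 (-1.82 ± 0.51), and Tgm2, a transglutaminase, had 11.05 and 11.07 against 11.75 and 11.58 (-0.61 ± 0.16). All 3 were apart between groups.

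Hydroxylases and glycosyltransferases, which modify the chains in the endoplasmic reticulum, had 9 of 14 lower and a median of -0.18. P3h2, a prolyl 3-hydroxylase, had 8.02 and 7.45 against 8.94 and 8.88 (-1.18 ± 0.22), and P4ha1, a catalytic subunit of prolyl 4-hydroxylase, had 11.50 and 11.82 against 13.15 and 12.45 (-1.14 ± 0.27). P3h4 ran the other way, at 7.98 and 8.52 against 7.42 and 7.61 (0.73 ± 0.23). Folding and secretion genes had 6 of 8 lower and a median of -0.23. Fkbp14, a prolyl isomerase, had 7.42 and 7.50 against 8.31 and 8.09 (-0.74 ± 0.16), Sparc, a collagen-binding matrix protein, 16.15 and 15.23 against 17.81 and 16.25 (-1.34 ± 0.56), and Mia3, needed to export procollagen, 9.85 and 9.42 against 9.98 and 10.30 (-0.51 ± 0.22). Each was lower on both TTg-MI arrays.

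Propeptide processing genes were nearly balanced, 5 of 9 lower with a median of -0.01. The 2 enhancers of procollagen C-proteinase were the exception: Pcolce had 9.58 and 8.87 in TTg-MI against 10.63 and 9.87 in Ctrl-MI (-1.03 ± 0.34), and Pcolce2 had 9.11 and 8.73 against 9.89 and 9.66 (-0.86 ± 0.20). Collagen receptors had 9 of 13 lower and a median of -0.31. Cd44 had 7.72 and 8.22 against 10.07 and 9.14 (-1.63 ± 0.35), and Mrc2, which takes up collagen fragments, had 8.21 and 8.16 against 9.55 and 8.91 (-1.05 ± 0.24). Antxr2, a receptor that takes up type VI collagen, was higher, at 10.57 and 10.51 against 9.36 and 9.23, a difference of 1.24 ± 0.15 (adjusted p = 0.530). Degrading proteases had 6 of 8 lower and a median of -0.11. Among them Mmp14 had 6.24 and 5.82 against 6.86 and 6.85 (-0.83 ± 0.19), and Mmp2, which Mmp14 activates, had 10.29 and 9.49 against 11.60 and 10.54 (-1.18 ± 0.43).

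**Figure D4:**
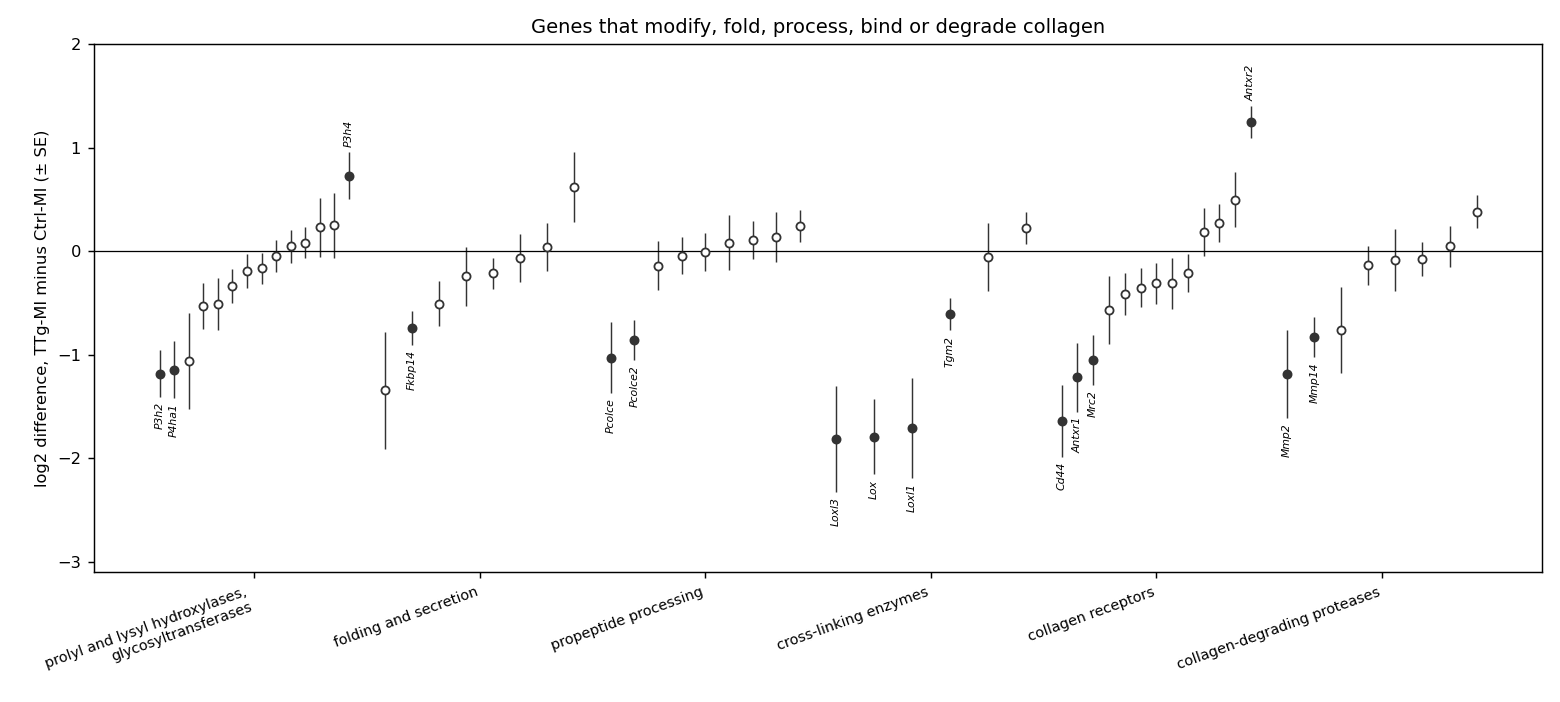
Log2 difference, TTg-MI minus Ctrl-MI, with limma's moderated SE, for the 58 measured genes that modify, fold, process, cross-link, bind or degrade collagen. Filled and named points have an unadjusted limma p under 0.05, 14 below 0 and 2 (P3h4 and Antxr2) above it.

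Several cell type marker lists also differed across these arrays, and fewer cells of a type and less RNA per cell cannot be told apart in whole heart. Each score is the mean over a list of a gene's log2 value minus its mean over the 4 arrays. Fibrillar collagens scored -0.05 and -0.44 in TTg-MI against 0.42 and 0.07 in Ctrl-MI, and basement membrane collagens -0.11 and -0.22 against 0.31 and 0.02. Fibroblast markers scored -0.28 and -0.91 against 0.95 and 0.24, with all 10 measured genes lower in TTg-MI and a median difference of -1.14. Activated fibroblast markers scored -0.25 and -0.88 against 0.93 and 0.20, with 7 of 8 lower; Acta2, which smooth muscle also expresses, was the higher one, and Lox is also in the cross-linking list. Matrifibrocyte markers scored -0.34 and -1.61 against 1.88 and 0.06, and macrophage markers -0.34 and -0.79 against 1.07 and 0.06, with 9 of 9 lower in each list. All 4 lists ordered the hearts in the same way as the fibrillar collagens, from Ctrl-MI replicate 1 at the top to TTg-MI replicate 2 at the bottom. Mean marker levels were 11.70 to 12.33 in TTg-MI and 12.85 to 13.56 in Ctrl-MI for fibroblasts, and 8.10 to 8.55 and 8.95 to 9.97 for macrophages. Their part in the collagen differences was not tested.

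Atrial markers went the other way, scoring 1.36 and 0.51 in TTg-MI against 0.21 and -2.08 in Ctrl-MI. Their median difference was 1.90, with 6 of 10 higher in TTg-MI and 4 lower. The atrial list includes Tbx5, a factor of the transgene. Endothelial markers, the cells on type IV collagen sheets, scored 0.18 and -0.23 in TTg-MI against 0.16 and -0.12 in Ctrl-MI, with 6 of 9 lower. Endocardial markers scored 0.30 and -0.50 against 0.59 and -0.39, smooth muscle 0.03 and 0.07 against 0.01 and -0.11, and pericyte 0.07 and 0.02 against -0.24 and 0.15. Cardiomyocyte markers scored 0.06 and 0.11 against -0.23 and 0.06, with 9 of 10 higher. Among these 9, Mb and Atp2a2 read the highest value of every array (19.92 to 19.93), and Actc1 and Pln lay close below (19.75 to 19.88). Differences can be hidden at that level, so this count and score are limited. Mesothelial markers scored -0.06 and -0.24 against 0.48 and -0.18, Schwann cell markers -0.36 and -0.12 against 0.32 and 0.16, adipocyte markers -0.03 and 0.05 against -0.10 and 0.08, and cartilage markers 0.01 and -0.11 against 0.19 and -0.09. The part of these cells in the collagen values was likewise not tested.

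**Figure D5:**
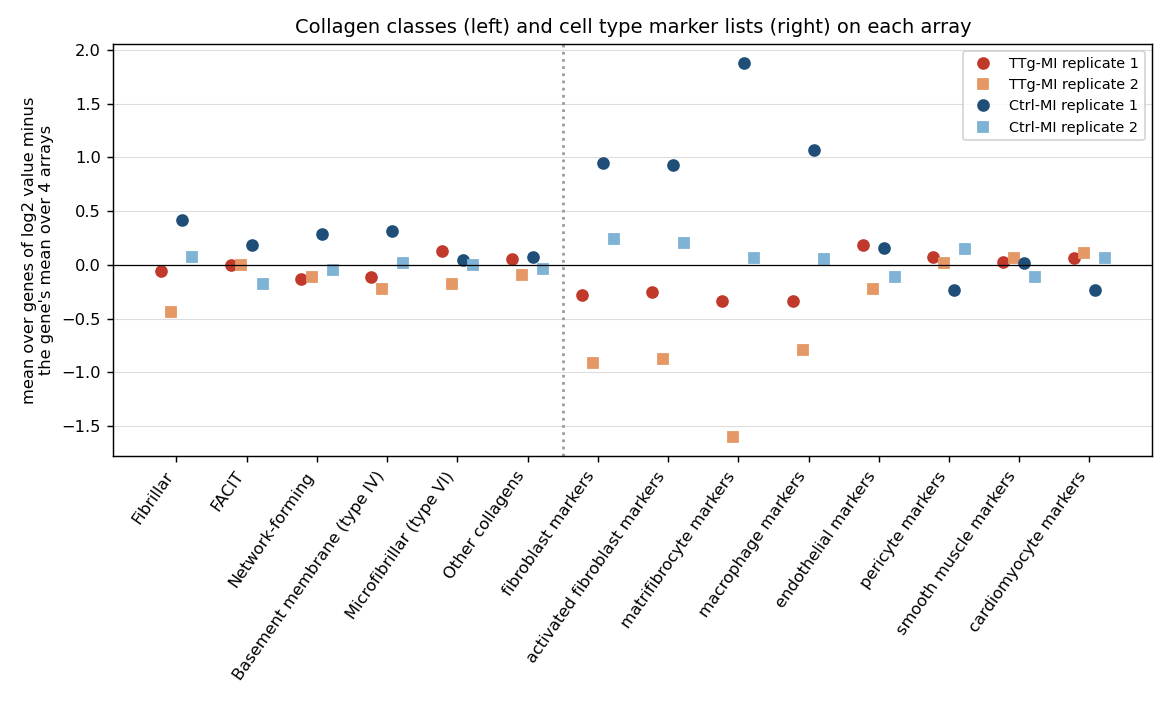
Centred mean log2 score of each collagen class and of 8 cell type marker lists on each array, TTg-MI left of Ctrl-MI. Ctrl-MI replicate 1 scored highest and TTg-MI replicate 2 lowest for fibrillar collagens, fibroblast, activated fibroblast, matrifibrocyte and macrophage markers.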

How the data were processed

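RNA from 4 whole hearts, 2 TTg-MI and 2 Ctrl-MI, was hybridised to Clariom S Mouse arrays. The submitters call the hearts of a group independent replicates. The log2 values deposited by the authors came from Affymetrix Expression Console 1.4, a tool named in the submitters' processing notes. How they were normalized and summarized, their log base and the genome build are not given in the sources used here. From values of about 4 to 20, a log2 scale was inferred. Values were used as deposited, without a filter. Arrays have no read depth; their number sets the precision.

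Probes were named from the platform annotation (19572 of 22206 had 1 symbol, 2634 were unnamed here). TTg-MI was compared with Ctrl-MI in limma 3.58.1 under R 4.3.3 (lmFit and eBayes, two-sided). The p-values were adjusted by Benjamini-Hochberg across every probe and called under 0.05; 2 residual degrees of freedom were joined by 3.56 from the prior. The fitting code was tested on simulated data. The collagen genes, their classes, the pathway and marker lists and the tests were chosen with earlier results of these data known. Array values were printed, per class, for the 3 genes of highest mean and the 3 of smallest p, leaving out genes under every array's lower quartile, and classes of 6 or fewer could be given whole; up to 3 genes of smallest p were named per pathway list. Genes named only for list membership, chain pairing, gene order or a count fall outside this rule and were chosen after their values were seen. Promoter sequences came from RefSeq (GRCm38.p6), and no coordinates are given for the array's probes.

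The fit was repeated after median centring, after quantile normalization, without dim probes, with an intensity trend and robust prior, with the replicate block, without each heart in turn, and with a threshold of 0.1, no moderation or the mean of a symbol's probes; collagens were also counted without dim members. Equal-numbered hearts deviated together with a correlation of 0.163 across probes, and nothing in the labels pairs them.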

Additional observations from a re-analysis of the deposited data

How the results depend on the processing

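No collagen passed an adjusted limma p of 0.05 under any alternative, or of 0.1 in the fit as reported; the smallest adjusted p of a named collagen in any alternative was 0.0877 (Col1a2). Of 28 named collagens, 16 kept the sign of their difference in every alternative and 12 did not. The count of collagens at an unadjusted p under 0.05 was 8 as reported, beside 8.25% of all probes in either direction. It was 2 without moderation, beside 5.59% of all probes (Col5a1, lower, and Col13a1, higher, which is not among the 8). It also changed when some single hearts were left out, as did the share of all probes past that threshold. The count of collagens lower on both TTg-MI arrays was 15 as reported and 17 to 27 when 1 heart was left out (27 without Ctrl-MI replicate 2), as fewer arrays need to be apart (32.5% to 36.4% of all probes then qualified). The count of probes past the threshold was 1 as reported, 4 with an intensity trend and robust prior, 0 without moderation (1241 at an unadjusted p under 0.05), and 1 to 332 when single hearts were left out, 332 being without Ctrl-MI replicate 2. With the replicate number as a block it was 7, and 11 collagens had an unadjusted p under 0.05, beside 11.1% of all probes. The labels share only the numbers between groups, so the block is no pairing by design. When single hearts were left out, median log2 differences ranged from -0.21 to 0.0023 for all collagens, -0.42 to -0.23 for fibrillar, -0.54 to -0.20 for basement membrane, -0.2064 to 0.0603 for network-forming, -0.10 to 0.24 for FACIT, -0.07 to 0.02 for microfibrillar and -0.19 to 0.17 for other collagens. The network median was -0.36 both without dim probes and without collagens under every array's lower quartile, since Col10a1 drops out and 2 genes remain. Taking the mean of a symbol's probes altered no collagen, as each has 1 probe. A fit without 1 heart assumes that the lone heart of its group varies like the other group.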
